A study of Mus musculus with 8 samples.

Results

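Transcripts of 7 cell adhesion genes were examined in mesenchymal stem cells that carry the leptin receptor (LEPR+), sorted from the marrow of mice: Vcam1, Icam1, Icam2, Alcam and Cadm1 of the immunoglobulin superfamily, and the cadherins Cdh2 and Cdh11. They were chosen by gene symbol, each matched 1 row of the 52636 genes in the count matrix, and all 7 passed the filter on low counts that left 16045 genes for testing. C57BL/6 mice had received 150 µg of antibody intravenously each week for 3 weeks. The control group was given HEL-Ig, an IgG1 against hen egg lysozyme, and the other group LTβR-Ig, a decoy that captures the ligands of the lymphotoxin β receptor. Live LEPR+ cells without CD45, Ter119, CD31 and CD144 were sorted from collagenase-treated long bone marrow, sorted again, and sequenced as polyA RNA with paired reads of 76 bp. Each group has 4 libraries, and the series speaks of 4 pairs without saying what a pair shares. The age of the mice, or whether a library came from 1 mouse or a pool, is not given in the sources used here. Hence the p-values rest on the spread among libraries, which may be technical.

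LEPR+ cells wrap the marrow sinusoids and hold blood cells by direct contact as well as by secreted factors. VCAM1 and the ICAMs are surface proteins with immunoglobulin domains that bind integrins of leukocytes, whereas CADM1 and the cadherins bind partners of the same families on neighbouring cells. ALCAM binds itself and CD6 of lymphocytes. Icam1 and Vcam1 are well known genes of inflamed endothelium and stroma, where NF-κB, the transcription factor family that the lymphotoxin β receptor activates, takes part in their induction.

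Total gene counts lay between 52378101 and 64403177 per library. Lepr itself stood at 3159 to 4499 CPM (a gene's count relative to the library's total count, with totals scaled by TMM factors) in the 8 libraries, and all 8 stromal markers listed were detected. Of these, 2 lay lower in every LTβR-Ig library, as Icam1 did. Kitl, the gene of stem cell factor, ranged from 1682 to 1942 CPM in controls and from 1106 to 1396 CPM with LTβR-Ig (log2 fold change -0.58, edgeR adjusted p = 0.125). Pdgfra, a receptor gene of mesenchymal cells, ranged from 407 to 461 and from 293 to 389 CPM (log2 fold change -0.29, edgeR adjusted p = 0.649). The remaining stromal markers had overlapping groups. Cxcl12, Adipoq and Lpl were higher on average (log2 fold change 0.22, 0.17 and 0.08). Lepr, Ebf3 and Foxc1 were lower (-0.14, -0.11 and -0.08). The summed stromal markers also overlapped, at 26154 to 33660 CPM in control and 29598 to 37650 CPM in LTβR-Ig libraries. Transcripts of cells that the gate removes were also present. Haemoglobin genes took 1.46 to 4.49% of counts, and endothelial markers summed to 52.3 to 155 CPM in control and 35.5 to 320 CPM in LTβR-Ig libraries. Of 16045 genes, 6 passed an adjusted p of 0.05 by edgeR's quasi-likelihood test (0.0374%), all lower with LTβR-Ig, and none of the 7 adhesion genes was among them. At an unadjusted p under 0.05 there were 2 of the 7, Icam1 and Cdh11, against 6.32% of all genes. The groups did not overlap for 1 of the 7, Icam1, against 4.89% of all genes (2.53% lower and 2.36% higher with LTβR-Ig).

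Icam1 was the adhesion gene that stood apart between the groups, and a stretch of its start is shown because it carries sequence of the kind NF-κB dimers bind. RefSeq promoter sequences on GRCm38.p6, the assembly also called mm10, were at hand for 2 of the 7 genes, Icam1 and Alcam. That of Icam1 covers chr9:21015690-21015989 on the plus strand, 250 bases before to 50 bases after the RefSeq start. Capitals mark matches to GGANNTTCC and to TATAAA, searched on both strands.
Icam1 promoter: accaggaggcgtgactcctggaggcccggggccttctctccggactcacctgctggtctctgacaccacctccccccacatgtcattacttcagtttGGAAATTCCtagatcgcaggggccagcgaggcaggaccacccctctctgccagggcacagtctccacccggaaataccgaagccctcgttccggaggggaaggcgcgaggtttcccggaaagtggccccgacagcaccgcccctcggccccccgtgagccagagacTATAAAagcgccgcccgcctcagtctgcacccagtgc
The match GGAAATTCC occupies bases 98 to 106 of this window on both strands, and begins 198 bases before the gene start in GENCODE M21. TATAAA occupies bases 264 to 269, so the matches do not overlap. It begins 32 bases before that GENCODE start but lies after the RefSeq start, which is the earlier of these starts. Of 32851 promoters of this length in the table, 4.26% hold GGANNTTCC and 13.6% hold TATAAA. The longer NF-κB consensus, which 8.46% of promoters hold, had no match in the Icam1 window. None of these patterns matched in the Alcam window. A match is a description of these letters and not of binding.

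Icam1 encodes the ligand of the leukocyte integrins LFA-1 and Mac-1, and lies on chromosome 9 from 21015985 to 21028817 on the plus strand (ENSMUSG00000037405.8, mm10). It stood at 82.3, 106, 106 and 86.5 CPM in control replicates 1 to 4 and at 51.8, 25.9, 48.2 and 53.2 CPM in LTβR-Ig replicates 1 to 4. Every LTβR-Ig library was below every control library, and LTβR-Ig replicate 2 was the lowest of all. The means were 95.1 ± 12.5 and 44.8 ± 12.8 CPM (SD, n = 4 each), a 2.12-fold difference. The log2 fold change was -1.09 (SE 0.23, 95% interval -1.60 to -0.57), with an unadjusted p of 0.00108 and an edgeR adjusted p of 0.212 over all genes, so Icam1 did not pass. DESeq2, which called 1.99% of the genes it adjusted, gave Icam1 an adjusted p of 0.00177 and called no other of the 7. Over all 18 alternatives its adjusted p ran from 0.00177 to 0.533. In bulk RNA, fewer cells that make a transcript and less of it per cell cannot be told apart.

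The predicted antisense gene Gm47079 overlaps exons at the far end of Icam1, and whether counting used strand is not given in the sources used here. Its 512 to 939 counts per library amounted to 12.3% of those of Icam1 over the controls and 26.8% over the LTβR-Ig libraries, with the highest share, 44.0%, in LTβR-Ig replicate 2. With these counts added to Icam1, a setting chosen after seeing the data, the log2 fold change was -0.91 (edgeR adjusted p = 0.222).

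**Figure D1:**
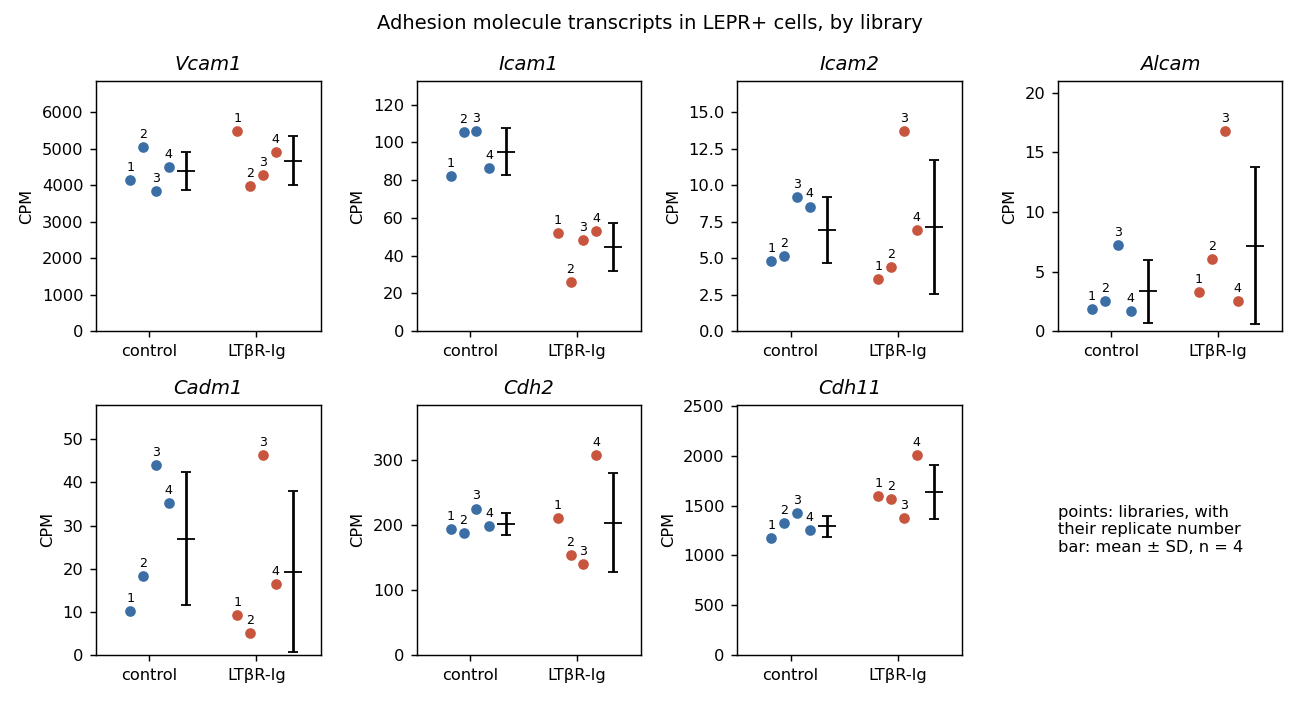
CPM of the 7 adhesion genes in each library (points, numbered by replicate) for control and LTβR-Ig groups, with mean ± SD (n = 4 each) at the right of each group and every axis starting at 0. Icam1 is the one gene of the 7 whose groups do not overlap, at 82.3 to 106 CPM in control and 25.9 to 53.2 CPM in LTβR-Ig libraries.

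Vcam1 encodes the ligand of the integrin α4β1, through which haematopoietic progenitors and lymphoid precursors attach to marrow stroma (ENSMUSG00000027962.14, chromosome 3, 116109949 to 116129688, minus strand). It stood at 4143, 5056, 3848 and 4493 CPM in control replicates 1 to 4 and at 5483, 3982, 4275 and 4915 CPM in LTβR-Ig replicates 1 to 4. The groups overlapped over most of their range, and the highest library of all was LTβR-Ig replicate 1. Its log2 fold change was 0.09 (SE 0.13, 95% interval -0.20 to 0.38, edgeR adjusted p = 1). A fall of Vcam1 as large as the Icam1 difference lies outside this interval. An antisense locus that overlaps Vcam1 exons, Gm43109, had at most 35 counts in a library.

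Within each library, the log2 ratio of Icam1 to Vcam1 was -5.64, -5.57, -5.17 and -5.69 in control replicates 1 to 4. It was -6.71, -7.24, -6.46 and -6.52 in LTβR-Ig replicates 1 to 4. The LTβR-Ig ratio was lower in 4 of 4 libraries. The mean difference was -1.21, or 2.31-fold, and the exact two-sided permutation test gave p = 0.0286, the smallest possible for 4 against 4 libraries. Adjusted over the 2 ratios computed the exact test gave 0.0571, above the threshold of 0.05. The ratio was chosen with earlier results of these data known. Icam1 alone already divided the groups, so this p is not separate support for the Icam1 difference.

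Icam2, on chromosome 11 from 106377656 to 106388075 (ENSMUSG00000001029.15, minus strand), encodes an LFA-1 ligand known from endothelium, platelets and leukocytes. It was low, with 222 to 778 counts per library, and stood at 4.79, 5.17, 9.22 and 8.55 CPM in control replicates 1 to 4. In LTβR-Ig replicates 1 to 4 it stood at 3.60, 4.42, 13.7 and 6.91 CPM. The LTβR-Ig libraries held both the lowest and the highest value of the 8. Between the groups the log2 fold change was 0.05 (SE 0.47, 95% interval -1.03 to 1.12, edgeR adjusted p = 1), and without LTβR-Ig replicate 3 it was -0.47.

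Cadm1 encodes an immunoglobulin family protein that binds itself and nectin-like partners, known from epithelia, synapses and mast cells (ENSMUSG00000032076.19, chromosome 9, 47530173 to 47857637, plus strand). Control replicates 1 to 4 had 10.2, 18.4, 44.0 and 35.2 CPM. LTβR-Ig replicates 1 to 4 had 9.29, 5.11, 46.4 and 16.3 CPM. The spread within groups was wide, 4.33-fold between the lowest and highest control and 9.08-fold between the lowest and highest LTβR-Ig library. Its log2 fold change was -0.48 (SE 0.69, 95% interval -2.05 to 1.09, edgeR adjusted p = 1). Without LTβR-Ig replicate 3 it was -1.39, and with control replicate 3 and LTβR-Ig replicate 2 both left out it was 0.18.

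Alcam encodes activated leukocyte cell adhesion molecule, which binds itself and CD6 of lymphocytes (ENSMUSG00000022636.13, chromosome 16, 52248996 to 52454074, minus strand). It was the least abundant of the 7, with 101 to 952 counts per library. Control replicates 1 to 4 had 1.87, 2.53, 7.26 and 1.72 CPM, and LTβR-Ig replicates 1 to 4 had 3.26, 6.06, 16.8 and 2.57 CPM. In both groups replicate 3 was the highest. The log2 fold change was 1.10 (SE 0.73, 95% interval -0.55 to 2.75, edgeR adjusted p = 0.965). It was 1.81 without control replicate 3, 0.25 without LTβR-Ig replicate 3 and 1.90 with control replicate 3 and LTβR-Ig replicate 2 both left out.

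Summed markers of other cell types varied between libraries, some with Icam2 and Cadm1 and some not. LTβR-Ig replicate 3, the highest library for Icam2, Cadm1 and Alcam, had the largest sums of endothelial markers at 320 CPM, of megakaryocyte and platelet markers at 4209 CPM and of macrophage and monocyte markers at 2799 CPM. LTβR-Ig replicate 1, the lowest for Icam2, had the smallest endothelial sum at 35.5 CPM. Erythroid markers summed to 30363 to 48262 CPM in replicates 3 and 4 of both groups, with control replicate 3 the highest. In replicates 1 and 2 of both groups, where Icam2 was lower, they summed to 15902 to 22235 CPM. B and plasma cell markers went the other way, at 404 to 926 CPM in replicates 3 and 4 of both groups, where Icam2 was higher, and at 2123 to 2977 CPM in replicates 1 and 2. Neutrophil and T and NK cell sums followed neither order, with control replicate 1 above control replicate 3 in both lists. The T and NK cell sum was, however, also largest in LTβR-Ig replicate 3 at 122 CPM and smallest in LTβR-Ig replicate 1 at 35.3 CPM. Pecam1, an endothelial and platelet gene behind the CD31 gate, ranged from 4.05 to 44.4 CPM, and the endothelial factor gene Sox17 was at 0 in all libraries but LTβR-Ig replicate 4, where it had 1.11 CPM. All 11 endothelial markers tested were higher on average with LTβR-Ig, none with an unadjusted edgeR p under 0.05 (median log2 fold change 0.67). Without LTβR-Ig replicate 3, a setting chosen after seeing the data, 3 of the 11 had a higher mean than in controls, and the ratio of the mean sums went from 1.57 to 0.904. Platelet marker sums were 724 to 2987 CPM in control and 1102 to 4209 CPM in LTβR-Ig libraries, with all 10 markers higher on average, also without that library, and none at that p. Macrophage marker sums were 989 to 2371 and 1071 to 2799 CPM, and 7 of 10 markers were higher on average, 1 of 10 without that library, none at that p. For none of the 11 marker lists did the summed levels of the 2 groups lie apart. The part of these cells in the levels of Icam2, Cadm1 and Alcam was not tested.

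**Figure D2:**
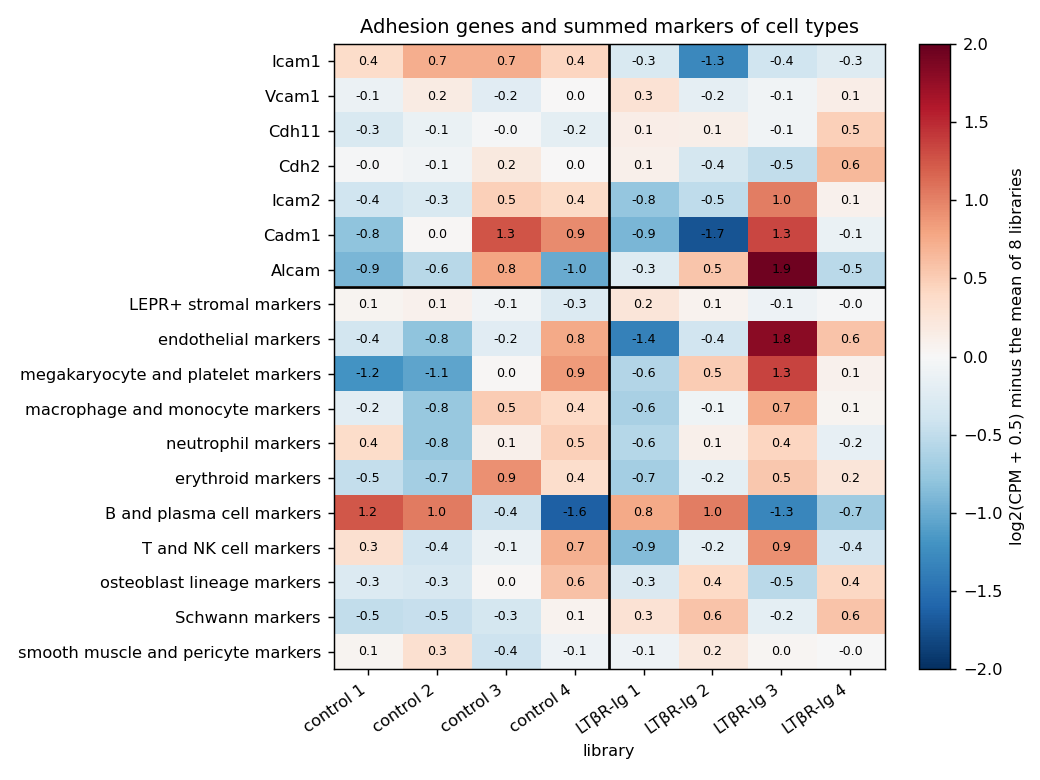
Difference of log2(CPM + 0.5) from the mean of the 8 libraries (colour and printed value) for the 7 adhesion genes and for the summed markers of 11 cell types, by library. Icam1 divides the libraries by group. Icam2, Cadm1 and Alcam share their highest library, LTβR-Ig replicate 3, with the endothelial, platelet, macrophage, and T and NK cell sums.

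Cdh11, the mesenchymal cadherin also called OB-cadherin, is known from osteoblasts, fibroblasts and other stromal cells (ENSMUSG00000031673.6, chromosome 8, 102632095 to 102785642, minus strand). It stood at 1173, 1327, 1423 and 1260 CPM in control replicates 1 to 4. It stood at 1594, 1565, 1374 and 2012 CPM in LTβR-Ig replicates 1 to 4. LTβR-Ig replicate 3 lay inside the control range and the other LTβR-Ig libraries above it. For Cdh11 the log2 fold change was 0.34 (SE 0.13, 95% interval 0.05 to 0.62), with an unadjusted p of 0.0261 and an edgeR adjusted p of 0.671, so the difference did not pass. Osteoblast lineage markers, which Cdh11 accompanies in bone, summed to 9929 to 18781 CPM in control and 8567 to 16595 CPM in LTβR-Ig libraries. Of 7 such markers tested, 6 were higher on average (median log2 fold change 0.45). At an unadjusted edgeR p under 0.05 there were 2 of the 7, against 6.32% of all genes. Most of the sum came from Ibsp, at 5610 to 16746 CPM. Alpl, the alkaline phosphatase gene of early osteoblasts, ranged from 201 to 382 CPM in controls and from 459 to 662 CPM with LTβR-Ig, without overlap (log2 fold change 0.95, edgeR adjusted p = 0.223). Sp7, an osteoblast transcription factor gene, had 0.95 with overlapping groups (edgeR adjusted p = 0.478). The part of these markers in the Cdh11 difference was not tested.

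Cdh2 encodes N-cadherin, a classical cadherin of mesenchymal and neural cells (ENSMUSG00000024304.14, chromosome 18, 16588877 to 16809246, minus strand). Control replicates 1 to 4 had 194, 187, 225 and 198 CPM, a narrow range. LTβR-Ig replicates 1 to 4 had 211, 154, 140 and 307 CPM, with values on both sides of the controls. For Cdh2 the log2 fold change was 0.01 (SE 0.23, 95% interval -0.51 to 0.54, edgeR adjusted p = 1). Without LTβR-Ig replicate 4, the highest library, it was -0.26 (edgeR adjusted p = 0.96).

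The log2 ratio of Cdh11 to Cdh2 was 2.59, 2.82, 2.66 and 2.67 in control replicates 1 to 4 and 2.92, 3.34, 3.29 and 2.71 in LTβR-Ig replicates 1 to 4. LTβR-Ig replicate 4 lay within the control range. The mean difference of 0.38 had an exact two-sided permutation p of 0.0571, and 0.0571 when adjusted over the 2 ratios.

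**Figure D3:**
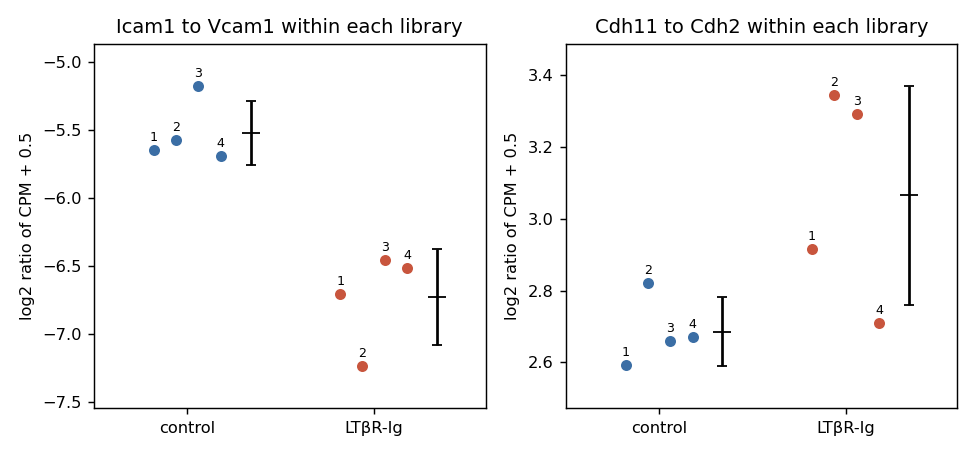
Log2 ratio of Icam1 to Vcam1 (left) and of Cdh11 to Cdh2 (right) in each library, from CPM + 0.5, with mean ± SD (n = 4 each). The Icam1 to Vcam1 ratio lies between -5.69 and -5.17 in control and between -7.24 and -6.46 in LTβR-Ig libraries, and the vertical axes do not start at 0 because the values are logarithms.

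Levels were compared between genes per kilobase of exon. In control libraries Vcam1 was the most abundant of the 7, at 494 ± 58.6 CPM per kb (SD, n = 4), followed by Cdh11 at 145.5 ± 11.9 CPM per kb. By the mean of all 8 libraries, Vcam1 ranked 90 and Cdh11 328 of 16019 tested genes with an annotated exon length. Cdh2 stood at 24.9 ± 2.04 and Icam1 at 21.8 ± 2.87 CPM per kb, and these neighbours overlapped between control libraries. Below them came Icam2 at 3.64 ± 1.19, Cadm1 at 2.58 ± 1.48 and Alcam at 0.47 ± 0.37 CPM per kb. Icam2 and Cadm1 overlapped, as did Cadm1 and Alcam. The order of the means was the same with LTβR-Ig. There Icam1 was at 10.3 ± 2.93 CPM per kb and no longer overlapped Cdh2 at 25.2 ± 9.44 CPM per kb, but its lowest library lay within the range of Icam2.

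**Figure D4:**
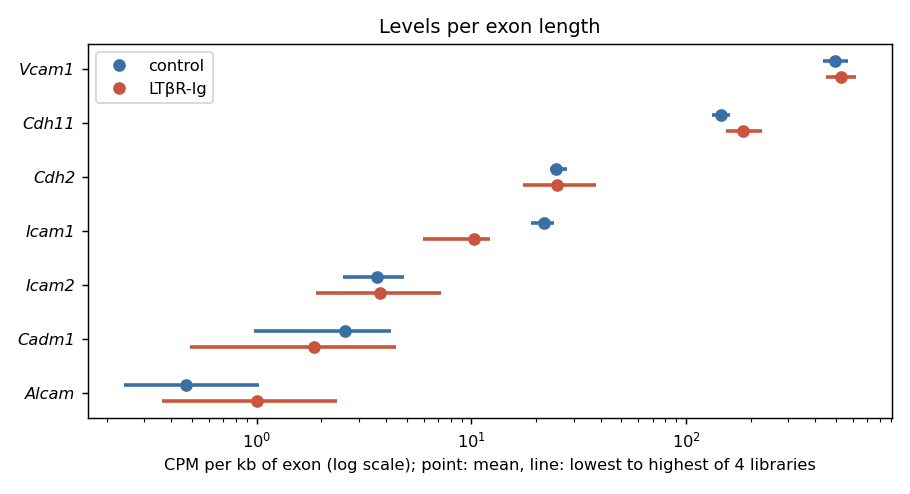
CPM per kilobase of exon on a log axis for the 7 adhesion genes, with the mean (point) and the lowest and highest of 4 libraries (line) in each group. Vcam1 and Cdh11 stand above the rest, and Icam1 is the gene whose control and LTβR-Ig lines do not overlap.

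The genes whose pattern over the 8 libraries was most like that of each adhesion gene were taken by Pearson's r of log2 CPM among 11422 genes, as a description with no test. For Icam1 they were Zc3h4 (r = 0.98), Afmid (0.97) and Caprin2 (0.96). Afmid averaged 15.6 ± 5.45 CPM in controls and 4.57 ± 2.12 with LTβR-Ig (SD, n = 4 each), and Zc3h4 36.3 ± 2.92 and 27.9 ± 4.38 CPM. For Cdh11 they were the TGF-β co-receptor gene Tgfbr3 (r = 0.97) and the elastic fibre genes Fbn1 (0.96) and Fbln5 (0.95). For Icam2 they included Mtmr14 (r = 0.98) and Dnase1l3 (0.98), a nuclease gene of macrophages and sinusoidal endothelium. For Vcam1 they were Prpf4 (r = 0.96), Recql (0.93) and Pex14 (0.93), and for Cdh2 Nptn (0.96), Mapk8 (0.94) and Dmwd (0.93). For Cadm1 they were Gbp8, Pilrb1 and Atp8a1 (r = 0.96 each), and for Alcam Dgkz (0.93), Tdrd7 (0.92) and Dclre1b (0.91). Among the adhesion genes themselves, Icam2 and Cadm1 were the closest pair (r = 0.89), whereas Icam1 and Vcam1 had r = 0.06. These libraries differ in depth and in the transcripts of other cells, which all genes share.

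Wider lists of adhesion genes were read from the same fit, and no gene of them passed an adjusted p of 0.05 by edgeR. Of 40 immunoglobulin superfamily adhesion genes 28 were tested, of which 2 (Ncam1 and Nectin1) lay higher and 1, Icam1, lower with an unadjusted edgeR p under 0.05. The shares over all genes were 3.39% higher and 2.93% lower. The groups did not overlap for 2 higher genes and 1 lower gene of the list, against 2.36% and 2.53% of all genes. Of the genes in this list 5 are among the 7 described above. The list median of the log2 fold change was 0.18, against -0.0021 over all genes tested. Ncam1, the neural cell adhesion molecule, which osteoblast lineage and nerve-associated cells also make, had the largest positive log2 fold change of the genes named from this list. It stood at 98.7, 154, 144 and 216 CPM in control replicates 1 to 4 and at 294, 443, 256 and 447 CPM in LTβR-Ig replicates 1 to 4. All LTβR-Ig libraries were above all controls (log2 fold change 1.23, SE 0.27, edgeR adjusted p = 0.223). Nectin1, which pairs with other nectins at cell junctions, averaged 6.46 ± 1.27 CPM in controls and 11.7 ± 1.31 with LTβR-Ig (SD, n = 4 each), also without overlap (log2 fold change 0.86, SE 0.25, edgeR adjusted p = 0.455). DESeq2 called both, with an adjusted p of 0.00249 for Ncam1 (0.00249 to 0.724 over its 17 alternatives) and 0.00441 for Nectin1 (0.00441 to 0.915). Over the same alternatives the Ncam1 log2 fold change ran from 1.07 to 1.45. Nrcam had -0.67, and the abundant genes Clmp and Cd47 had 0.19 and -0.10, all with overlapping groups. Schwann cell markers summed to 147 to 217 CPM in control and 181 to 306 CPM in LTβR-Ig libraries, with 1 of 4 tested markers, S100b, higher on average and a median log2 fold change of -0.44. The Schwann lineage genes Sox10 and Foxd3 were at 0 in all 8 libraries.

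Cadherins were few: 7 of 23 were tested, with a list median of 0.07. At an unadjusted edgeR p under 0.05, 1 was higher (Cdh11) and 1 lower, against 3.39% and 2.93% of all genes. The lower one was Cdh15, a muscle cadherin, averaging 4.51 ± 3.57 CPM in controls and 1.12 ± 0.697 with LTβR-Ig (SD, n = 4 each), with overlapping groups (edgeR adjusted p = 0.664). Its log2 fold change was -1.33 when control replicate 3 was left out and -2.50 when LTβR-Ig replicate 3 was. Cdh5, the endothelial cadherin CD144 that the sort selects against, was at 3.18 to 16.2 CPM in control and 1.17 to 20.9 CPM in LTβR-Ig libraries. Cdh4 and Cdh13 were below 11 CPM in every library, with log2 fold changes of 1.03 and 1.20 and intervals that include 0. With single libraries left out, Cdh4 ran from 0.59 (without LTβR-Ig replicate 2) to 1.39 (without control replicate 3). Cdh13 ran from 0.61 (without LTβR-Ig replicate 2) to 2.22 (without control replicate 4), and was 0.17 with control replicate 3 and LTβR-Ig replicate 2 both left out. Cdh1, the epithelial cadherin, was not tested, with at most 157 counts in a library.

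Partners that tie cadherins and ICAMs to actin were examined next. Of 16 such genes 14 were tested, with a list median of 0.15. At an unadjusted edgeR p under 0.05, 2 were higher and 0 lower, against 3.39% and 2.93% of all genes. The groups did not overlap for 1 of the 14, higher with LTβR-Ig, against 2.36% of all genes. The actin cross-linker gene Actn4 averaged 181 ± 19.3 CPM in controls and 260.3 ± 25.9 with LTβR-Ig (SD, n = 4 each), without overlap. It had a log2 fold change of 0.53 (SE 0.11, edgeR adjusted p = 0.226), and DESeq2 gave an adjusted p of 0.00695 (0.00695 to 0.632 over its 17 alternatives). Ctnna1, which encodes α-catenin, had 0.25 (edgeR adjusted p = 0.751). Ctnnb1, Ctnnd1, the talin gene Tln1 and Arvcf had 0.20, 0.15, 0.19 and 0.72, each with overlapping groups.

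Of 10 proteases of the ADAM and MMP families, some of which shed adhesion molecules, all were tested (list median 0.11). At an unadjusted edgeR p under 0.05, 2 were higher and 1 lower, against 3.39% and 2.93% of all genes. The groups did not overlap for 2 of the 10, higher with LTβR-Ig, against 2.36% of all genes. Mmp14 had a log2 fold change of 0.56 and Adam9 one of 0.42, both without overlap between groups (edgeR adjusted p = 0.478 and 0.657). Mmp9, which neutrophils and osteoclasts make, had -0.90 (edgeR adjusted p = 0.683). Adam10, a protease that cleaves N-cadherin, had 1.03 (95% interval -1.31 to 3.38, edgeR adjusted p = 1). Control replicates 3 and 4 stood at 9.51 and 6.48 CPM and the other 6 libraries at 232 to 316 CPM. Without control replicate 3 or 4 the Adam10 log2 fold change was 0.65 or 0.64, and without control replicate 1 or 2 it was 1.52 or 1.66.

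The integrins and other receptors that bind VCAM1, ICAMs, ALCAM and CADM1 are largely leukocyte genes, but some are made by stroma. Of 14 genes 12 were tested, with a list median of 0.17. At an unadjusted edgeR p under 0.05, 2 were higher and 0 lower, against 3.39% and 2.93% of all genes. The groups did not overlap for 2 of the 12, higher with LTβR-Ig, against 2.36% of all genes. Itga9, whose α9β1 integrin binds tenascin C and VCAM1, stood at 27.0, 26.7, 24.5 and 29.3 CPM in control replicates 1 to 4. It stood at 45.8, 59.1, 51.5 and 47.8 CPM in LTβR-Ig replicates 1 to 4, all above the controls. The log2 fold change was 0.93 (SE 0.14, 95% interval 0.61 to 1.24, edgeR adjusted p = 0.084), and DESeq2 gave an adjusted p of 1.64e-09 (1.64e-09 to 0.499 over its 17 alternatives). Without each library in turn, the edgeR adjusted p of Itga9 lay between 0.158 and 0.301. Itgb1, its β1 partner, averaged 546 ± 6.19 CPM in controls and 671 ± 48.9 with LTβR-Ig (SD, n = 4 each), also without overlap. Its log2 fold change was 0.30 (SE 0.08, edgeR adjusted p = 0.423), and DESeq2 gave an adjusted p of 0.0162 (0.0162 to 0.915 over its 17 alternatives). Itga4, the VCAM1 receptor chain, and Itgb2, the chain shared by LFA-1 and Mac-1, had -0.09 and 0.07 with overlapping groups. Spn, a leukocyte sialoglycoprotein gene, had -0.64 (edgeR adjusted p = 0.926).

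**Figure D5:**
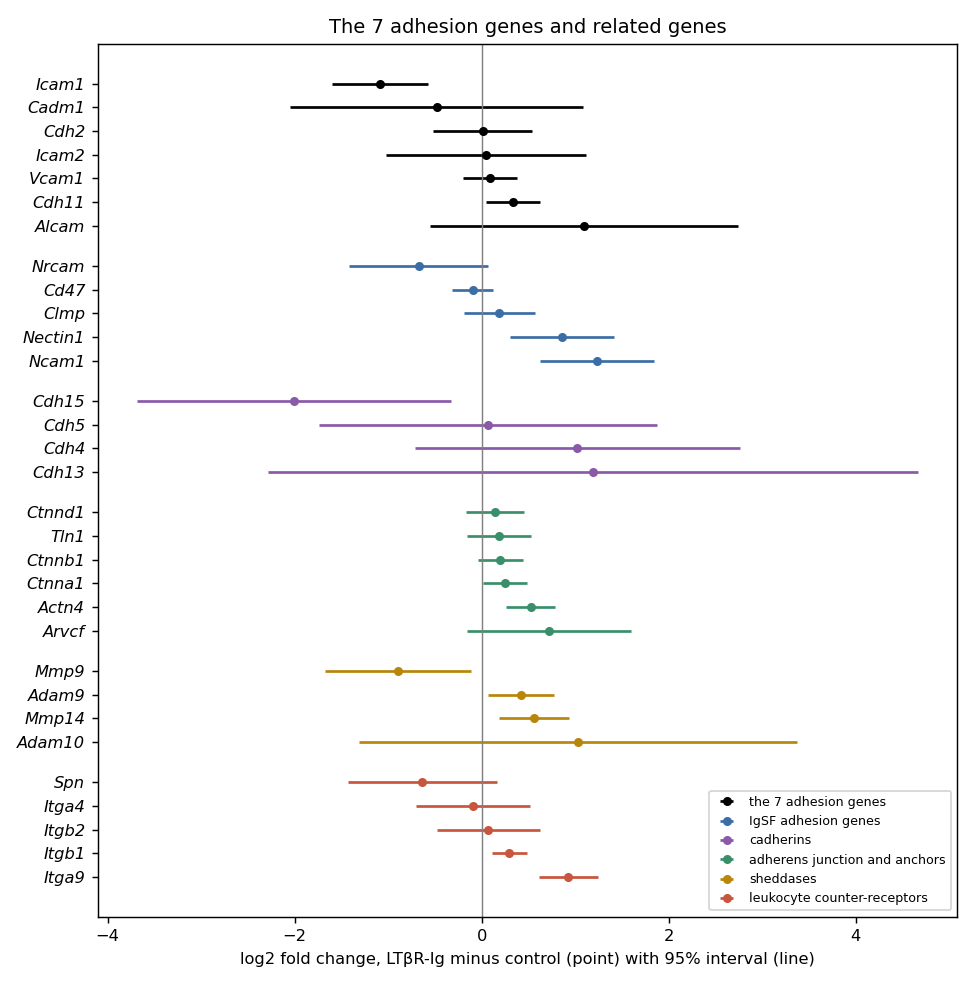
Log2 fold change (LTβR-Ig minus control, point) with its 95% interval (line) for the 7 adhesion genes and for the genes named from 5 wider lists, coloured by list. Among the 7, the intervals of Icam1 (-1.60 to -0.57) and Cdh11 (0.05 to 0.62) exclude 0, and no gene shown passed an adjusted p of 0.05 by edgeR.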

How the data were processed

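The authors deposited raw counts (whole numbers, not normalized) of each gene in 8 libraries. Per the submitters' processing notes, HISAT2, HTSeq and mm10 were used. The annotation release, like tool versions and the strand setting, is not given in the sources used here. Groups and replicate numbers came from sample titles. Symbols, coordinates and exon lengths came from GENCODE M21, where 52489 of 52636 IDs matched without the version suffix. A check for duplicated libraries found that replicates differed far beyond counting noise (chi-square per degree of freedom 150 to 283). No library was thus a copy of another of its group, and all 8 were kept.

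edgeR 4.0.16 in R 4.3.3 was used with TMM scaling, filterByExpr (minimum count 10, minimum total count 15), robust glmQLFit and the quasi-likelihood F test. All 8 libraries entered without covariate, with Benjamini-Hochberg adjustment over 16045 genes. Standard errors were obtained by dividing the absolute log2 fold change by the root of F. Exon length is the union of annotated exons. Ratios used CPM + 0.5 and an exact permutation test. The scripts were tested on simulated data. The genes, lists and ratios were chosen with earlier results of these data known. From each wider list the 3 tested genes with the smallest p and the 3 with the highest CPM were named. For likeness, 3 genes were taken per adhesion gene, leaving out predicted loci and genes whose log2 CPM averaged under 1. One gene so taken is not reported here. Marker sums left out some genes that LEPR+ cells also make, such as Vcam1 and Col1a1, but not every gene abundant in these libraries. The osteoblast lineage sum kept Ibsp, at 5610 to 16746 CPM.

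The settings tried instead were edgeR with upper-quartile factors or with DESeq2's size factors, DESeq2 1.42.0, limma-voom 3.58.1 with sample weights, no filter, a strict filter (10 counts in 4 libraries and a mean of 5 CPM), a block for the replicate number, and fits without single libraries. The block with the strict filter, Icam1 with the counts of Gm47079 added, and marker sums without LTβR-Ig replicate 3 were chosen after seeing the data.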

Additional observations from a re-analysis of the deposited data

Results flagged for a closer look

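Of 66 groups of 4 values examined for the named genes and ratios, 2 held a value far from the other 3. Chance gives this for about 1 in 20 groups. For Alcam it was control replicate 3, with 7.26 CPM where the remaining controls had 1.72 to 2.53 CPM. For Itgb2, the leukocyte integrin chain, it was LTβR-Ig replicate 3, with 157 CPM where the remaining LTβR-Ig libraries had 82.9 to 95.3 CPM, and that library also had the largest sum of macrophage and monocyte markers.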

How the results depend on the processing

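The 6 genes called over all genes became 339 with DESeq2, 14 with limma-voom, 22 with the strict filter, 1 with the replicate block, 18 with the block and the strict filter, 1 when control replicate 3 and LTβR-Ig replicate 2 were left out together, and 2 (without control replicate 3) to 9 (without LTβR-Ig replicate 4) when 1 library was left out. Icam1 kept its direction under all 18 alternatives (-1.18 to -0.84) and passed with DESeq2 alone (-1.09, adjusted p = 0.00177); without 1 library it ran from -1.18 to -0.90, and with the replicate block it was -1.13 (edgeR adjusted p = 0.533). Vcam1 (0.01 to 0.17), Alcam (0.25 to 1.90) and Cdh11 (0.22 to 0.42) kept their direction under all 17, without passing. Icam2 had -0.053 with limma-voom, -0.096 with the replicate block, -0.10 with the block and strict filter, -0.47 to 0.27 without 1 library and 0.39 without that pair. Cdh2 had -0.0060 with limma-voom, -0.054 with the block, -0.059 with the block and strict filter, and -0.26 to 0.16 without 1 library. Cadm1 had -1.39 to -0.14 without 1 library and 0.18 without that pair. Among the other genes, Cdh5 had -0.39 with limma-voom, -0.40 with the block, -0.40 with the block and strict filter and -0.79 to 0.58 without 1 library. Itga4 had -0.20 to 0.15 and Itgb2 -0.18 to 0.18 without 1 library. The cause was not tested. The Icam1 to Vcam1 ratio kept its direction under all 11 alternatives (-1.30 to -0.92), as did Cdh11 to Cdh2 (0.28 to 0.50), and with 1 library left out the exact permutation test cannot go below p = 0.0571. The series speaks of 4 pairs, but what a pair shares is not given in the sources used here, and the numbers were not shown to pair the libraries: deviations of same-numbered libraries correlated at -0.0252 to 0.128, and 2 of 8 libraries correlated best with their own number. A coarser split by number was present. On the first principal component, the axis of largest variation among libraries, replicates 1 and 2 of both groups lay at -31.46 to -14.71. Replicates 3 and 4 of both groups lay at 9.593 to 28.85. Between groups, libraries on the same side of this split correlated at -0.0252 to 0.167, and those on opposite sides at -0.181 to 0.0129. What lies behind this split was not tested. With the replicate block Alcam had 0.96 (unadjusted p = 0.0357, edgeR adjusted p = 0.717) and Adam10 2.59 (edgeR adjusted p = 0.814). Ncam1 passed with the block and the strict filter (1.24, edgeR adjusted p = 0.0444). Each of the 7 genes had at least 101 counts in every library.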

Other observations

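Genes with very low values in 1 or more libraries were counted after the values of Adam10, low in control replicates 3 and 4, had been seen. Of 3802 genes with a mean of at least 50 CPM, 24 had at least 1 library below 10% of their median over the 8 libraries (0.631%), with 1 such gene in LTβR-Ig replicate 3 and 10 in control replicate 3 at the extremes. None of the 4 adhesion genes of that abundance (Vcam1, Icam1, Cdh2 and Cdh11) was among them.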
